A study of Mus musculus with 12 samples.

Results

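The PDZ and LIM domain genes of the mouse, Ldb3 and 6 Pdlim genes (Pdlim1, Pdlim2, Pdlim3, Pdlim4, Pdlim5 and Pdlim7), were followed in sorted oligodendrocyte precursor cells (OPCs) and neurons. They were taken by name, and all 7 were found among the 30165 genes counted in OPCs and the 17918 genes counted in neurons. Ldb3 was selected on its lower count in dKO OPCs, so that difference is given below as a description without a test, while the 6 Pdlim genes in OPCs and all 7 genes in neurons were tested.

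Cells came from the cortex of dKO mice, in which NG2-CreERT2 was combined with floxed alleles of Cacna1c (Cav1.2 fl/fl, exons 14 and 15) and Cacna1d (Cav1.3 fl/fl, exon 2), and of control mice (ctl), whose genotype is labelled WT. Whether ctl mice carried the recombinase or the floxed alleles is not given in the sources used here, nor is the age at collection. Tamoxifen was given intraperitoneally at 100 mg/kg on postnatal days 7 and 8. The NG2 promoter drives the recombinase in OPCs and also in pericytes of the vessel wall. OPCs were caught on beads against CD140, NG2 and O4, and neurons were what passed a column that retained cells carrying O4, CD11b, CD31 or ACSA-2, with 3 libraries for each genotype and cell type and 2 mice pooled in each library.

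PDZ and LIM domain proteins join the actin cytoskeleton to signalling proteins. The PDZ domain at the amino end binds alpha-actinin, which crosslinks actin filaments at the Z-disc of striated muscle and along stress fibres, and the zinc-binding LIM domains at the carboxyl end bind kinases and other partners. The group is best known from muscle, where mutations of human LDB3, also called ZASP or Cypher, cause cardiomyopathy and myofibrillar myopathy, whereas in brain cells Pdlim5 (ENH) has been studied at synapses and as a scaffold of protein kinase C.

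Total counts were 14935963 to 19812274 per OPC library and 15052901 to 16344585 per neuron library. In the libraries labelled OPC, 12 oligodendrocyte markers such as Mbp and Mog together held 53240 to 82870 CPM (counts scaled to a common library total), against 1572 to 2801 CPM for 12 OPC markers such as Pdgfra and Cspg4. In the libraries labelled neuron, 12 endothelial markers such as Cldn5 and Flt1 held 8435 to 17940 CPM, against 790.5 to 1772 CPM for 12 neuron markers. Both sets of libraries thus carried much RNA of cells other than those they are labelled for, and in such bulk samples fewer cells of a type cannot be told apart from less RNA per cell. The deleted exons are a small part of each targeted gene, and in OPCs Cacna1c had a log2 fold change (dKO against ctl) of -0.44 with groups that did not overlap and Cacna1d one of -0.55 with groups that overlapped (adjusted p = 0.349 and 0.531, edgeR).

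The members differ in how many LIM domains their transcripts encode. In translations of the GENCODE M21 coding sequences, searched for the spaced cysteines and histidines of a LIM domain, the RefSeq-matched transcripts of Pdlim1 (327 residues), Pdlim2 (349 residues), Pdlim3 (316 residues) and Pdlim4 (330 residues) held 1 such pattern each. Ldb3, Pdlim5 and Pdlim7 have long transcripts with 3 patterns, the longest of 723, 614 and 457 residues, and short ones with 0 patterns.

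Upstream sequence is shown for Ldb3, the member chosen for its difference in OPCs, and for Pdlim3, the other member named for muscle (its protein is actinin-associated LIM protein, ALP). Both are the 250 bases before a transcription start in RefSeq on GRCm38.p6, written 5′ to 3′ along the gene, chr14:34588608-34588857 (minus strand) and chr8:45885237-45885486 (plus strand). Capitals mark a CArG box, the binding sequence of serum response factor, in Ldb3, and E-boxes (CANNTG) in Pdlim3.

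Ldb3: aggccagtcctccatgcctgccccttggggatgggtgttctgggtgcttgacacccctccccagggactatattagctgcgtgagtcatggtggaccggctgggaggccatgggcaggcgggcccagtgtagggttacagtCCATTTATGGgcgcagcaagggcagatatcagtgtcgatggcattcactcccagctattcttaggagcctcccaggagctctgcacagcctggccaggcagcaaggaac

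Pdlim3: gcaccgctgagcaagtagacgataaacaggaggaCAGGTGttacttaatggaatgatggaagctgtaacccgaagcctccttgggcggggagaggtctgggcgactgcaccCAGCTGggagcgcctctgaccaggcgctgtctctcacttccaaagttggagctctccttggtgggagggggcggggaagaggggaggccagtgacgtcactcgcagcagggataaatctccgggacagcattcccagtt

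The CArG box of Ldb3 begins at base -109 from this start and at base -35 from a second RefSeq start of the gene. On either strand, 1.47% of 32851 promoters hold a CArG box in their 250 upstream bases, and none of the other 5 members with a window does. The Pdlim3 window holds E-boxes at bases -216 and -139, of which the second is CAGCTG, a form found in 13% of promoters, while 66.2% hold an E-box of any kind. These letters are a description of the sequence and were not tested against expression. A window for Pdlim2 was not analysed here.

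Ldb3 (ENSMUSG00000021798, chromosome 14 from 34248560 to 34310639 in the coordinates deposited for OPCs, minus strand) encodes the Z-disc protein Cypher. In ctl OPCs its normalised read count, scaled for library size by TMM, was 375, 438 and 442 in libraries 1 to 3. In dKO OPCs it was 119, 97.1 and 157. The lowest ctl library thus held more than double the highest dKO library. The log2 fold change was -1.75 (standard error 0.20), a count 3.36-fold lower in dKO OPCs, and since the gene was chosen on these values no test is attached to them. When each library was left out in turn, the log2 fold change ran from -1.96 to -1.60. The raw counts behind these values were 368 to 429 reads in ctl and 107 to 147 reads in dKO libraries.

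**Figure D1:**
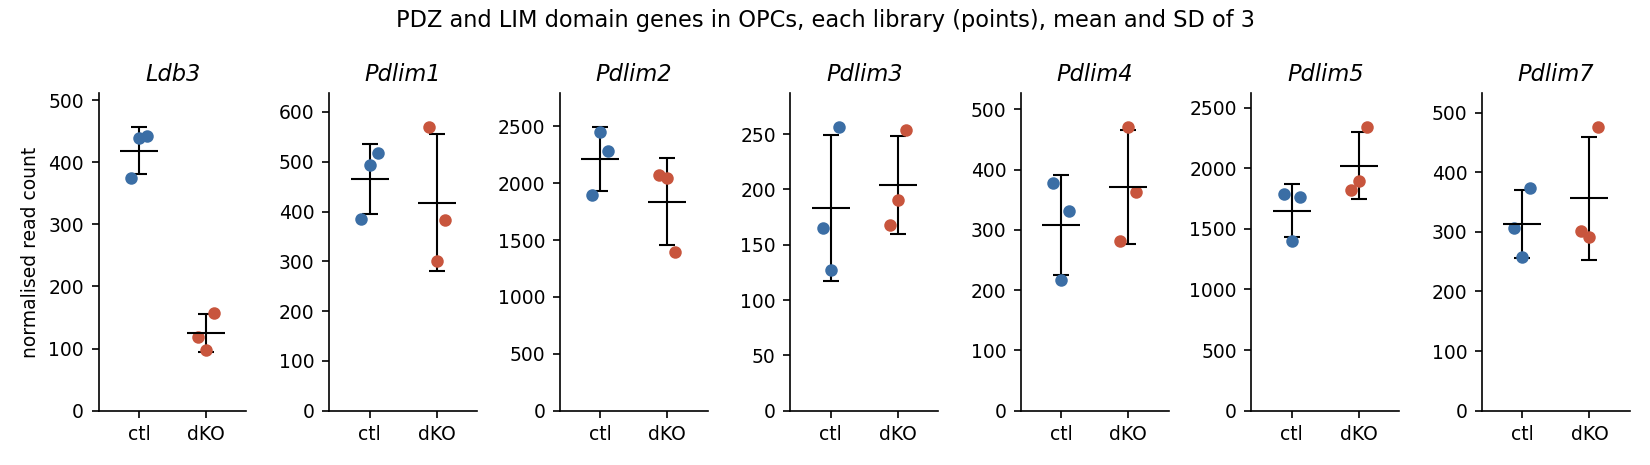
Normalised read counts (y axis, from 0, own scale for each gene) of the 7 PDZ and LIM domain genes in OPCs of ctl and dKO mice. Points are libraries, and lines with bars are the mean and SD of 3 libraries. Ldb3 lies at 375 to 442 in ctl and 97.1 to 157 in dKO, and of the 6 Pdlim genes, Pdlim5 alone has groups that do not overlap.

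Ldb3 is a muscle gene, and the summed level of 13 striated muscle markers was therefore examined beside it. These markers held 49.57, 58.25 and 50.15 CPM in ctl OPC libraries and 32.88, 107.1 and 43.71 CPM in dKO libraries. The groups overlapped, and dKO library 2 was the highest. Of the 9 muscle markers with enough counts to be tested, 6 were higher in dKO OPCs and the median log2 fold change was 0.11, and Myh4, the other listed marker, was not analysed here. The part of muscle RNA in the Ldb3 difference was not tested. The 14 mural cell markers, which include those of NG2-positive pericytes, held 1089 to 1604 CPM in ctl and 926 to 2025 CPM in dKO libraries, again with overlap. By contrast, all 12 microglia markers were higher in dKO OPCs (median log2 fold change 1.32, 12 of 12 with an unadjusted p under 0.05, and 9 called by DESeq2 after adjustment), with 264.9 to 331.9 CPM in ctl libraries and 791.3, 336.5 and 1153 CPM in dKO libraries 1 to 3. All 10 astrocyte markers were higher as well (median log2 fold change 0.93, 8 of 10 with an unadjusted p under 0.05, and 5 called by DESeq2), with 1286 to 2016 CPM in ctl and 1812, 5148 and 3164 CPM in dKO libraries 1 to 3. So were all 12 endothelial markers (median 0.29) and all 10 fibroblast and meningeal markers (median 0.51), both with summed levels that overlapped. The OPC markers were higher for 9 of 12 (median 0.58), the neuron markers for 11 of 12 (median 0.38) and the mural cell markers for 11 of 14 (median 0.22). Of the 12 oligodendrocyte markers 2 were higher in dKO OPCs, the median log2 fold change was -0.43, and their summed level of 68730 to 79160 CPM in ctl and 53240 to 82870 CPM in dKO libraries overlapped. The part of these cell types in the Ldb3 difference was not tested.

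Among the Pdlim genes in OPCs, 0 of 6 passed an adjusted p of 0.05 over the 17364 genes tested (edgeR's quasi-likelihood test, Benjamini-Hochberg), where 0.00576% of all genes did. An unadjusted p under 0.05 was likewise reached by 0 of 6, against 11.5% of all genes, and by DESeq2 0 of 6 passed the adjusted threshold, against 1.72% of all genes. Ctl and dKO libraries did not overlap for 1 of 6, against 17% of all genes. The 6 log2 fold changes lay between -0.27 and 0.29.

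Pdlim5, the scaffold of protein kinase C, was the member without overlap. Its counts were 1790, 1400 and 1761 in ctl and 1825, 1897 and 2336 in dKO OPCs. The lowest dKO library was only just above the highest ctl library. The log2 fold change was 0.29 (standard error 0.14, 95% interval -0.04 to 0.62, unadjusted p = 0.0740, adjusted p = 0.476, edgeR), and it was 0.16 without dKO library 3.

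Pdlim2 (mystique), which carries nuclear transcription factors such as RelA to degradation, had counts of 1899, 2448 and 2282 in ctl and 2071, 2048 and 1394 in dKO OPCs. Only dKO library 3 lay below the ctl range, and the log2 fold change was -0.27 (95% interval -0.66 to 0.13, adjusted p = 0.580, edgeR), or -0.11 without that library. For Pdlim4 (RIL), which binds alpha-actinin and the AMPA receptor subunit GluA1, the counts were 377, 217 and 331 in ctl and 281, 470 and 364 in dKO, with a log2 fold change of 0.27 (95% interval -0.29 to 0.83, adjusted p = 0.707, edgeR) and groups that overlapped. That value was 0.061 without dKO library 2 and 0.070 without ctl library 2.

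Pdlim1 (CLP36), an alpha-actinin partner on stress fibres, was counted at 385, 493 and 517 in ctl and at 569, 300.3 and 383 in dKO OPCs. The dKO libraries spread on both sides of the ctl range, and the log2 fold change of -0.16 (95% interval -0.69 to 0.38, adjusted p = 0.838, edgeR) turned to 0.037 without dKO library 2. The endothelial markers of that library, at 1148 CPM, were also the lowest of the 6 libraries, where the others held 1407 to 3373 CPM, and their part in the Pdlim1 value was not tested.

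Pdlim3, the ALP protein of muscle Z-discs, had counts of 165, 127 and 256 in ctl and 168, 191 and 254 in dKO OPCs, with ranges that largely coincided. Its log2 fold change was 0.16 (95% interval -0.48 to 0.79, adjusted p = 0.866, edgeR) and was -0.045 without ctl library 2. Pdlim7 (enigma), which holds LIM domains that bind receptor tyrosine kinases, had counts of 307, 258 and 373 in ctl and 302, 291 and 475 in dKO, for a log2 fold change of 0.18 (95% interval -0.33 to 0.69, adjusted p = 0.790, edgeR). Here too 1 library set the sign, since the value was -0.088 without dKO library 3.

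In neurons, a cell type in which the NG2 promoter is not known to drive the recombinase, the same contrast was made, though mural cell markers, those of pericytes among them, held 646.3 to 1624 CPM in these libraries. Ldb3 was close to the filter there, with counts of 10.2, 31.1 and 23.6 in ctl and 20.6, 19.9 and 18.4 in dKO libraries. All dKO values lay inside the ctl range. The log2 fold change was -0.14 (95% interval -1.44 to 1.16, adjusted p = 0.960, edgeR). With curated NM transcripts alone it was -1.67 (adjusted p = 0.83, edgeR), where dKO libraries 1 and 3 held 0 counts. Whether the fold changes of OPCs and neurons differ was not tested, because the tables were counted in different ways.

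Of all 7 members in neurons, 0 passed an adjusted p of 0.05, as did 0% of the 14352 genes tested there, and 0 of 7 had an unadjusted p under 0.05, against 9% of all genes. DESeq2 called 0 of 7 as well, against 0.613% of all genes. Groups were free of overlap for 0 of 7 members, against 15.3% of all genes.

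With all transcripts counted, the largest member difference in neurons was that of Pdlim4, with counts of 133, 81.7 and 81.4 in ctl and 210, 114 and 142 in dKO. The groups overlapped through ctl library 1. The log2 fold change was 0.65 (standard error 0.34, 95% interval -0.13 to 1.43, unadjusted p = 0.0903, adjusted p = 0.595, edgeR), and it ran from 0.37 to 0.93 when libraries were left out in turn. With curated NM transcripts alone it was 0.11, and that of Ldb3 was -1.67.

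Pdlim5 was the most abundant member of this group in neurons, with counts of 2817, 2909 and 2948 in ctl and 1649, 2902 and 2800 in dKO. A single library, dKO 1, stood below the rest, and the log2 fold change of -0.24 (95% interval -0.72 to 0.25, adjusted p = 0.757, edgeR) was -0.02 without it. That library also had the fewest counts on endothelial markers, 8435 CPM against 14940 to 17940 CPM in the other neuron libraries, and the most on neuron markers, 1772 CPM against 790.5 to 1324 CPM. The part of these markers in the Pdlim5 value was not tested.

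Pdlim7 had counts of 397, 498 and 425 in ctl and 515, 523 and 495 in dKO neurons, where the lowest dKO library was barely under the highest ctl library. Its log2 fold change was 0.22 (95% interval -0.13 to 0.56, adjusted p = 0.700, edgeR). The remaining members were spread widely within genotypes. Pdlim1 ran from 55.7 to 88.4 in ctl and from 53.2 to 134 in dKO (log2 fold change 0.38, or 0.11 without dKO library 1 and 0.68 without dKO library 3), Pdlim2 from 196 to 354 and from 191 to 303 (log2 fold change -0.03), and Pdlim3 from 30.0 to 58.9 and from 20.8 to 53.9 (log2 fold change -0.08), with adjusted p values of 0.80, 0.981 and 0.976 (edgeR). Over all 12 endothelial markers, each was lower in dKO neuron libraries, with a median log2 fold change of -0.39, and 10 of 12 neuron markers were higher, with a median of 0.51. The medians were -0.88 for oligodendrocyte markers and -0.71 for microglia markers, of which 0 of 12 were higher in each case, and -0.71 for OPC markers, of which 3 of 12 were higher. The part of these markers in the member values was not tested.

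**Figure D2:**
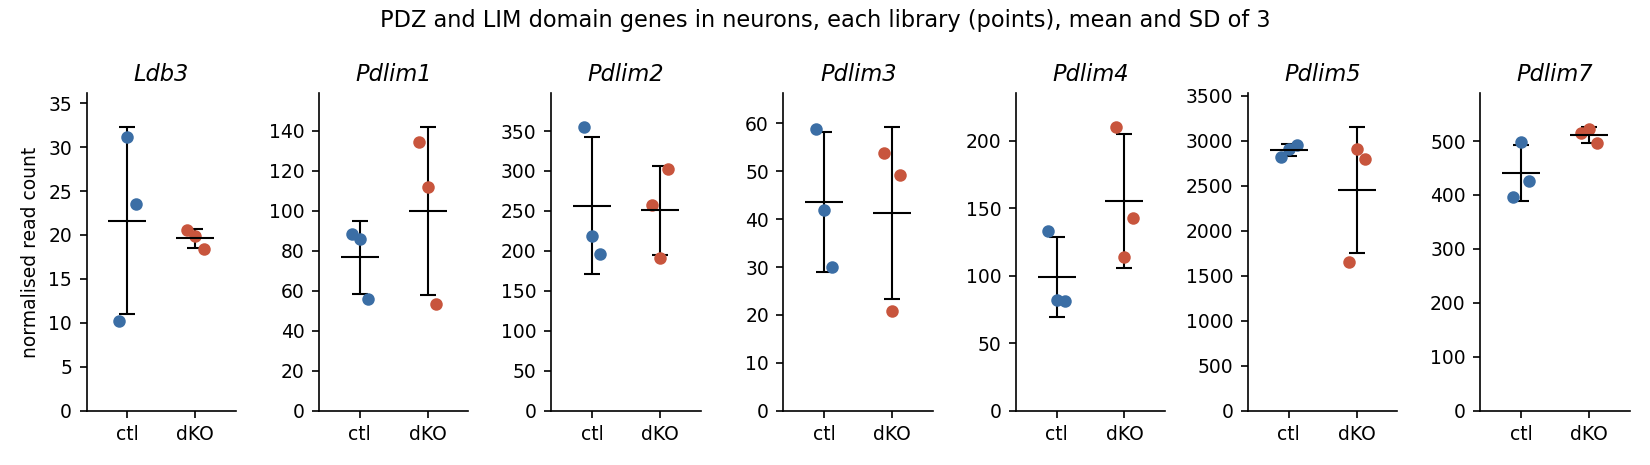
Normalised read counts (y axis, from 0, own scale for each gene) of the 7 PDZ and LIM domain genes in neurons of ctl and dKO mice. Points are libraries, and lines with bars are the mean and SD of 3 libraries. The groups overlap for all 7 genes, and for Pdlim5 dKO library 1 lies at 1649 while the other 5 libraries lie between 2800 and 2948.

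To compare levels between genes, values per transcript length were used (TPM, scaled to the same total in each library). In ctl OPCs Pdlim2 was highest, with 86.95, 115.7 and 106.6 TPM, followed by Pdlim5 with 33.43 to 41.59 TPM and Pdlim4 with 17.94 to 30.25 TPM. Next came Pdlim1 at 15.03 to 20.61 TPM, Ldb3 at 12.63 to 15.21 TPM and Pdlim7 at 11.29 to 16.12 TPM, with Pdlim3 last at 5.246 to 10.42 TPM. In this order Pdlim4 overlapped Pdlim1, Pdlim1 overlapped Ldb3 and Ldb3 overlapped Pdlim7, so that these neighbours did not differ beyond their spread, while the other neighbours stood apart. Ldb3 was thus no trace transcript in ctl OPC libraries, since its mean lay above 69.7% of the genes detected in them. In dKO OPCs Ldb3, at 3.7, 2.984 and 5.599 TPM, was last of the 7 members and below every Pdlim3 value of that group.

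In ctl neurons the order was another. Pdlim5 led with 64.55 to 70.16 TPM, and Pdlim7 followed with 39.14 to 48.69 TPM. Pdlim2 held 15.43 to 30.96 TPM and Pdlim4 8.41 to 15.7 TPM, which overlapped, as did Pdlim1 at 4.25 to 7.66 TPM and Pdlim3 at 2.03 to 4.53 TPM. Ldb3 was last with 0.39, 0.82 and 0.63 TPM, above only 18.4% of the genes detected. The dKO neurons kept the same order of means, though Pdlim5 and Pdlim7 then overlapped through dKO library 1. Levels of the cell types are set side by side without a test, because the tables were made in different ways.

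**Figure D3:**
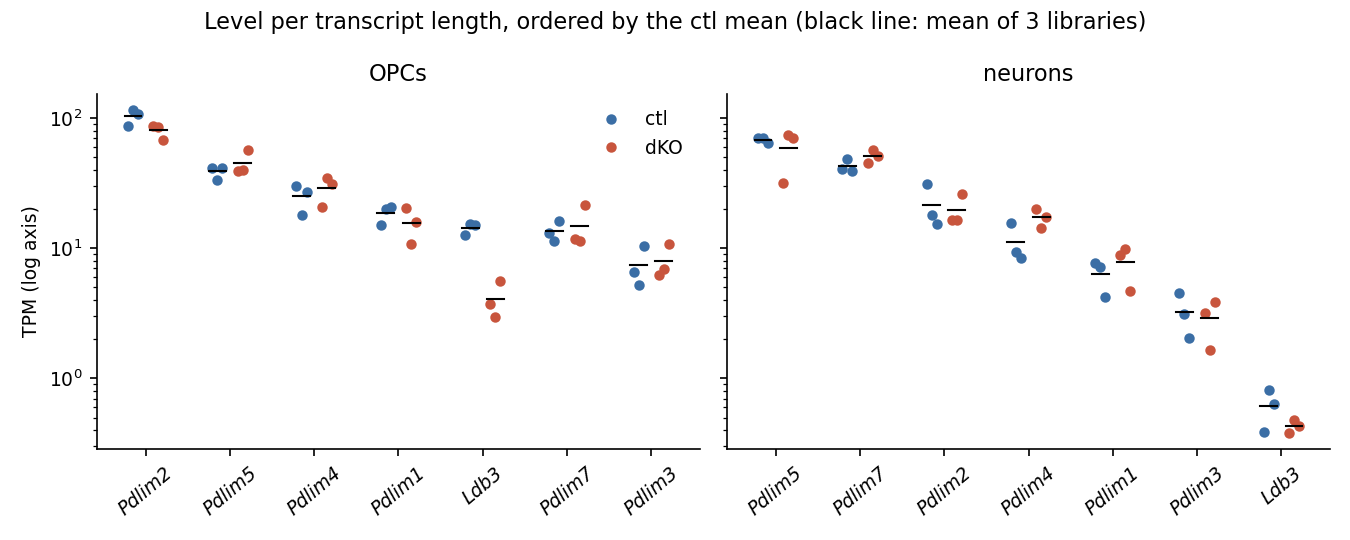
Level per transcript length (TPM, log axis) of the 7 genes in OPCs (left) and neurons (right), ordered by the ctl mean. Points are libraries and black lines the means of 3. Ldb3 falls in the middle of the order in ctl OPCs (14.34 TPM), at its end in dKO OPCs (4.094 TPM), and at its end in neurons of both genotypes.

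The neuron table is given per RefSeq transcript, which allows the isoforms to be followed. Of the transcripts with a mean estimated count of at least 10 in genes with several transcripts, 18 belonged to 4 members (Pdlim2, Pdlim4, Pdlim5 and Pdlim7), and 3 of these 18 had shares that did not overlap between ctl and dKO, against 9.01% of the 36171 such transcripts of all genes. Among these 3, XM_030246067 and NM_019417 are the only transcripts listed for Pdlim4, so their shares mirror each other and are a single difference. Two-sided exact permutation tests of 3 libraries against 3 gave these 3 transcripts their smallest possible p, 0.1, and adjusted over the 18 tests the value was 0.6.

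For Pdlim4, the predicted transcript XM_030246067 held 11.84%, 8.738% and 8.579% of the gene's estimated counts in ctl and 46.72%, 43.21% and 23.0% in dKO neurons. The lowest dKO share was nearly double the highest ctl share. The difference was 27.93 percentage points, and NM_019417, which encodes the 330-residue protein with its LIM domain, was lower by the same amount, with 90.28% ± 1.838 (SD, n = 3) in ctl neurons and 62.36% ± 12.8 (SD, n = 3) in dKO neurons. When only curated NM transcripts were counted, the log2 fold change of Pdlim4 was 0.11 in place of 0.65.

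For Pdlim2, NM_001253736 held 26.91%, 26.15% and 20.35% in ctl and 51.21%, 69.06% and 64.22% in dKO neurons, a difference of 37.03 percentage points with a wide gap between the groups. Its partner NM_145978 held 21.72%, 53.22% and 12.27% in ctl and 15.69%, 0% and 0% in dKO, and the predicted XM_006518783 held 13.09% to 67.38% and 19.71% to 28.06%, both with overlap. NM_001253736 and NM_145978 encode proteins of the same length, 349 residues with 1 LIM pattern, and the length of the protein does not tell them apart. How the shares of such transcripts were estimated is not given in the sources used here.

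The isoforms of Pdlim5 were steadier. NM_001190854, of 482 residues, held 68.77%, 70.62% and 71.54% in ctl and 63.66%, 69.77% and 56.31% in dKO, and NM_019808, of 591 residues, held 22.61% to 25.7% and 21.31% to 35.01%. All forms with 3 LIM patterns together made 96.21% to 98.02% of Pdlim5 in ctl and 92.3% to 96.82% in dKO neurons. Transcripts without a matched protein held up to 1.05% in ctl and up to 5.01% in dKO, the latter in dKO library 2. Forms with 0 LIM patterns held 1.978% to 2.74% in ctl and 2.093% to 3.179% in dKO. For Pdlim7, 43.01% to 48.56% of the estimated counts lay on predicted transcripts without a matched protein, and the short form without LIM domains, NM_001114087 (222 residues), held the largest share in each of the 6 libraries, with 30.76% to 36.84% in ctl and 31.35% to 45.16% in dKO, while NM_001114088, with 3 LIM patterns, held 13.19% to 17.34% and 6.103% to 19.72%. Neither differed beyond overlap between genotypes. Ldb3 in neurons was spread over 5 transcripts with at most 21 estimated counts each, and no share was compared.

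**Figure D4:**
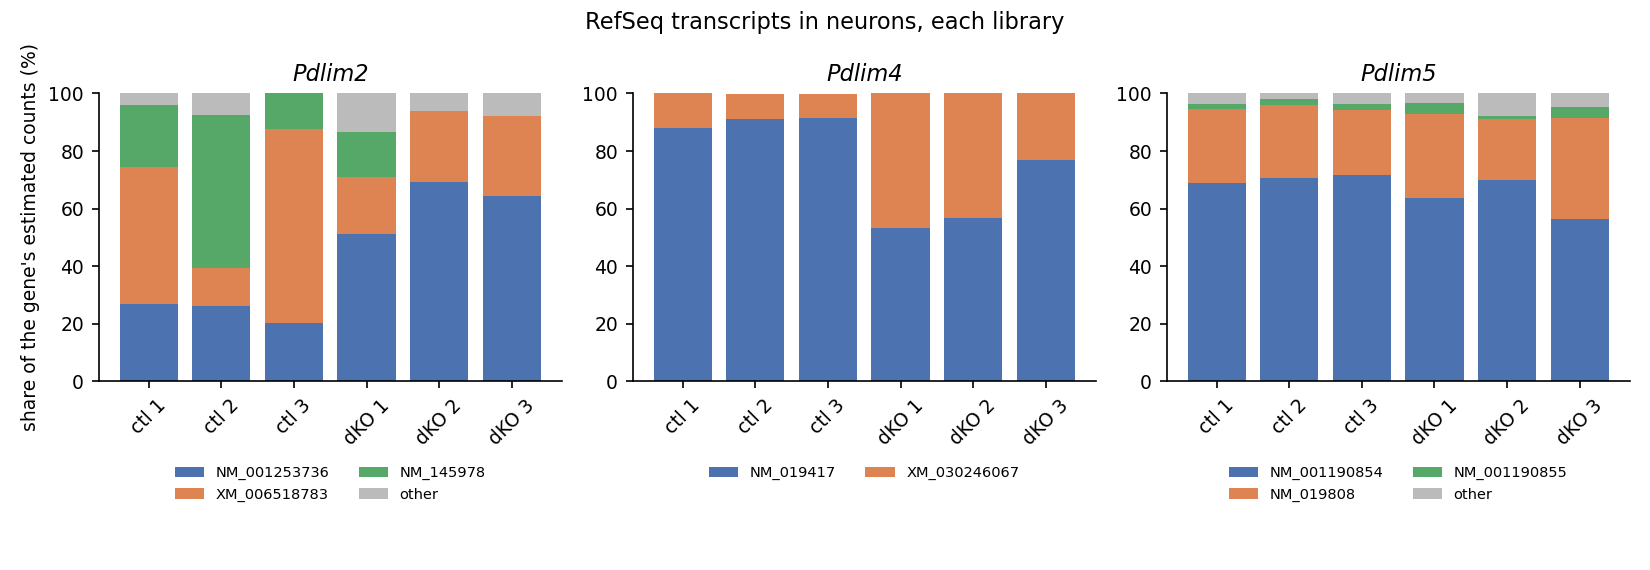
Share of each gene's estimated counts (y axis, %) held by its RefSeq transcripts in the 6 neuron libraries, for Pdlim2, Pdlim4 and Pdlim5. The blue part of the Pdlim2 bars is 20.35% to 26.91% in ctl and 51.21% to 69.06% in dKO, the orange part of the Pdlim4 bars is 8.579% to 11.84% and 23.0% to 46.72%, and the Pdlim5 bars overlap between genotypes.

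The partners of these proteins were examined next. Of 24 tested genes for alpha-actinins, filamins and other Z-disc proteins, 2 had an unadjusted p under 0.05 in OPCs (edgeR), 1 higher and 1 lower, which is 8.33% beside the 11.5% of all genes. With DESeq2 4 of the 24 did, and the share of all genes at that threshold with DESeq2 is not given here. The median log2 fold change was 0.09, against 0.01 over all genes tested. Nrap, an actin-binding LIM protein of nascent myofibrils, went from 121, 149 and 136 to 82.1, 101 and 59.9 (log2 fold change -0.73, adjusted p = 0.330, edgeR). Nebl, the small nebulin relative nebulette or LASP2, went from 1578, 1054 and 1533 to 1799, 1816 and 2374 (log2 fold change 0.52, adjusted p = 0.351, edgeR). Neither pair of groups overlapped.

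Of 41 tested genes for other LIM domain proteins of the cytoskeleton, 12 (29.3%, beside 11.5% of all genes) had an unadjusted p under 0.05 in OPCs, 8 higher and 4 lower, and the list's median log2 fold change was 0.10. The microglia and astrocyte markers described above were higher in the same dKO libraries, and their part in this count was not tested. This count was between 5 and 14 when libraries were left out in turn, with 5 without ctl library 2 or without dKO library 3. The share of all genes in those settings is not given here. Fblim1 (migfilin), which links filamin to adhesions, did not overlap between genotypes, with 48.1, 36.9 and 49.1 in ctl and 105, 69.0 and 154 in dKO (log2 fold change 1.28, adjusted p = 0.291 with edgeR and 0.0309 with DESeq2). For Mical2, an actin-oxidising enzyme, the log2 fold change was 0.75 (adjusted p = 0.323), whereas it was -0.45 (adjusted p = 0.296) for its relative Mical3 and -0.52 (adjusted p = 0.310) for Prickle1, of planar cell polarity.

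Within the focal adhesion core, 3 of 18 tested genes (16.7%, beside 11.5% of all genes) had an unadjusted p under 0.05 in OPCs. Ptk2, the focal adhesion kinase, went from 2645, 3203 and 2742 to 2191, 2091 and 1989 (log2 fold change -0.45, adjusted p = 0.287 with edgeR and 0.0441 with DESeq2). Fermt3 and Parvg, forms of kindlin and parvin typical of blood and immune cells, had log2 fold changes of 0.88 (adjusted p = 0.366) and 1.15 (adjusted p = 0.387, groups that overlapped), and their dKO counts were largest in libraries 1 and 3, the same libraries in which the microglia markers were highest. The part of microglia RNA in these values was not tested.

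Of 17 tested kinases and other signalling partners, 4 (23.5%, beside 11.5% of all genes) had an unadjusted p under 0.05 in OPCs, and 1 without ctl library 2. Id2, a transcription regulator that Pdlim5 is known to hold in the cytoplasm, went from 681, 524 and 805 to 848, 1271 and 1084 (log2 fold change 0.67, adjusted p = 0.310, edgeR). Prkce, the protein kinase C isoform that Pdlim5 binds, had a log2 fold change of 0.47, Gria1, the AMPA receptor subunit bound by Pdlim4, one of 0.94 with overlapping groups, and Prkcz, an atypical protein kinase C, one of -0.39, with adjusted p values of 0.357, 0.386 and 0.405 (edgeR). The dKO counts of Id2 and Gria1 (448, 1104 and 533) were highest in library 2, as were the astrocyte markers, whose part in these values was not tested. Over all 4 lists, 0 genes passed the adjusted threshold in OPCs with edgeR, and with DESeq2 Fblim1 and Ptk2 did, 2 of 100 list genes tested (2%) beside 1.72% of all genes.

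In neurons, unadjusted p values under 0.05 were found for 2 of 19 partners (10.5%), 3 of 40 other LIM proteins (7.5%), 0 of 18 focal adhesion genes and 2 of 18 signalling genes (11.1%), beside 9% of all genes, and 0 passed the adjusted threshold with edgeR or DESeq2. With DESeq2 the focal adhesion count at an unadjusted p under 0.05 was 1, and the share of all genes at that threshold with DESeq2 is not given here. Neb, the nebulin of muscle thin filaments, had a log2 fold change of 0.73, and Synpo2 (myopodin) one of -0.60. Wtip, an Ajuba relative, had one of 1.08, while Lpp and Tes, zyxin-like proteins of adhesions, had ones of -0.45 and -0.47. Prkca, the classical protein kinase C alpha, had one of 0.64 and the phosphatase Ptpn13 one of 0.86. The adjusted p values of these 7 genes were 0.521 to 0.548 (edgeR).

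Ldb3 lies on the chromosome of Cacna1d, at 4.04 Mb from it in the deposited coordinates, so the genes around it were examined for the same contrast. Of 18 tested genes starting within 1 Mb of Ldb3, 7 (38.9%) had an unadjusted p under 0.05 in OPCs, 4 higher and 3 lower, against the 11.5% of all genes, and 7 had groups without overlap, where 17% of all genes did. Within 5 Mb it was 16 of 75 (21.3%). The count within 1 Mb was 3 without ctl library 1 and 4 without dKO library 2. No adjusted p within 1 Mb was below 0.232 with edgeR, whereas DESeq2 called 3 of the 18 (Anxa8, Syt15 and Gdf10), beside 1.72% of all genes. In neurons 2 of 11 tested genes (18.2%) within 1 Mb had an unadjusted p under 0.05, beside 9% of all genes, and 5 of 11 (45.5%) had groups without overlap, beside 15.3%.

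Anxa8, an annexin starting 441 kb from Ldb3, had raw counts of 54, 38 and 86 reads in ctl and 12, 15 and 11 reads in dKO OPCs. The groups were well apart, at a log2 fold change of -2.28 and an adjusted p of 0.232 (edgeR). Syt15, a synaptotagmin starting 307 kb away, went from 268, 106 and 146 reads to 59, 58 and 89 reads (log2 fold change -1.33). Gdf10, a growth factor of the BMP family starting 603 kb away, went the other way, with 66, 32 and 86 reads in ctl against 123, 133 and 172 in dKO (log2 fold change 1.19). Glud1, the glutamate dehydrogenase, had 3218, 2791 and 3521 reads in ctl and 3860, 7420 and 3900 in dKO (log2 fold change 0.58), with its peak in dKO library 2, the library highest in astrocyte markers, whose part was not tested. The adjusted p values of these last 3 genes were 0.286, 0.307 and 0.385 (edgeR).

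Gm49012, which was picked after its values were seen and was too low for the test (mean normalised count under 10), is a long non-coding RNA on the plus strand starting 2.41 kb beyond the Ldb3 start. It had 13, 17 and 17 reads in ctl OPCs and 0 in all 3 dKO libraries, an at least 16.5-fold lower normalised count if 3 reads over the dKO group are taken as the floor. It overlaps Opn4 on the minus strand, which had 19, 14 and 11 reads in ctl and 9, 7 and 11 reads in dKO, and the strand of these reads is not known. Whether the position of Ldb3 near the floxed Cacna1d locus has a part in its count was not tested.

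**Figure D5:**
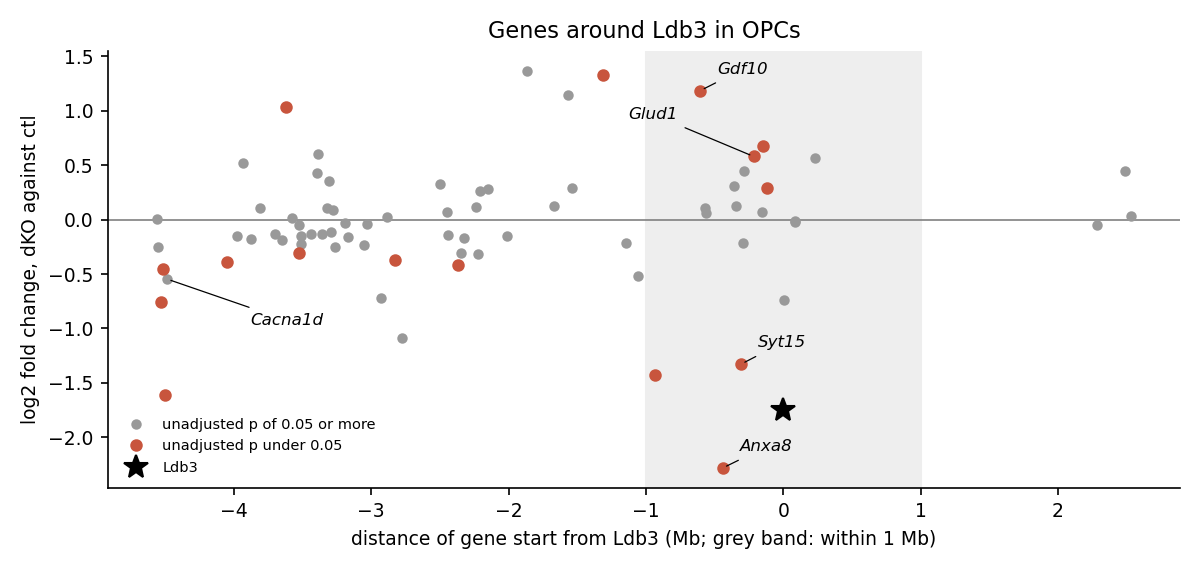
Log2 fold change in OPCs (y axis, dKO against ctl) of the 75 tested genes starting within 5 Mb of Ldb3, by distance from Ldb3 (x axis, Mb, negative towards Cacna1d). Red points have an unadjusted p under 0.05, the star is Ldb3, and the grey band, within 1 Mb, holds 7 red points of 18, with Anxa8 at -2.28 below Ldb3 at -1.75.

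Among the 5 protein-coding genes with a pattern most like that of Ldb3 over the 6 OPC libraries, by the root mean square difference of centred log2 CPM, were Ctsw (0.371), Duxbl1 (0.379), Dusp26 (0.398) and Anxa8 (0.406). Of the 5, 2 lie on chromosome 14 with Ldb3, Duxbl1 starting 8.27 Mb and Anxa8 0.44 Mb from it, and the part of this position was not tested. Dusp26, a phosphatase, was by far the most abundant, with normalised counts of 2839 ± 482 in ctl OPCs, against 1105 ± 189 in dKO OPCs (SD, n = 3 each). Ctsw had a mean of only 16.7 in ctl and 4.23 in dKO. The 5 genes were chosen for their likeness to Ldb3 in these same libraries, so their lower counts in dKO follow from the choice and are given as a description.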

How the data were processed

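The OPC table, as deposited, holds raw counts and FPKM per Ensembl gene. The authors' methods name HISAT2, GRCm38 and featureCounts, the labels name mm39, and 1.971% of the coordinates match GENCODE M21, so positions are printed as deposited. For neurons, the authors deposited estimated counts and TPM per RefSeq transcript (66298 transcripts, tool not given in the sources used here), which were summed per gene, 17794 with a symbol, and rounded. Neuron columns named cKO were taken as dKO. The deposited fold changes and p-values were not used. FPKM were rescaled to the total of TPM for levels.

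Genes with a mean TMM-normalised count of at least 10 were tested per cell type with edgeR 4.0.16 (R 4.3.3), genotype only, Benjamini-Hochberg at 0.05. DESeq2 1.42.0 was an alternative. The fit was tested on simulated data with known changes. In OPCs it called 189 of 192 changed genes and 10 unchanged genes (17362 tested). In neurons it called 196 of 196 changed genes and 9 unchanged genes (14342 tested). The size of the known changes is not given here, and recovery at the size of the Pdlim differences was not tested. Transcript shares were compared by exact permutation (SciPy 1.17.1). Nothing states whether pooled libraries were collected separately beyond their mice, so p-values measure the spread between these libraries. Libraries of one group were not copies of each other (chi-square per gene of at least 14.29). Coefficients of variation were 20.48% in OPCs and 27.69% in neurons.

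The members, lists and rules were chosen with earlier results of these data known. Named were the members, the targeted genes, up to 4 genes per list and cell type with unadjusted p under 0.05, the 4 protein-coding genes with the smallest p within 1 Mb of Ldb3, and the 5 genes most like Ldb3, of which 1 is not reported here. Gm49012 and Opn4 were named after their values were seen. Left-out libraries for lists, neighbours and transcripts, and DESeq2 for neighbours, were added after seeing the data.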

Additional observations from a re-analysis of the deposited data

How the results depend on the processing

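The counts of genes past the adjusted threshold were 0 for the 6 Pdlim genes in OPCs and 0 for all 7 members in neurons with DESeq2, DESeq2's size factors, no filter on low counts, the replicate block, an unadjusted threshold and each library left out, and the log2 fold change of Ldb3 in OPCs was -1.76 with DESeq2, -1.73 without a filter, and -1.96 to -1.60 with each library left out. Correlations of same-numbered deviations were -0.11, 0.15 and 0.12 in OPCs and 0.17, -0.07 and -0.07 in neurons. With 3 libraries per group these values cannot decide whether replicate numbers pair the libraries. With the replicate block Ldb3 in OPCs was at -1.77. Leaving out 1 library at a time gave log2 fold changes in OPCs of -0.44 to 0.037 for Pdlim1, -0.36 to -0.11 for Pdlim2, 0.061 to 0.44 for Pdlim4, -0.045 to 0.47 for Pdlim3 and -0.088 to 0.32 for Pdlim7, and in neurons of -0.48 to 0.22 for Ldb3, 0.11 to 0.68 for Pdlim1, -0.19 to 0.27 for Pdlim2 and -0.32 to 0.24 for Pdlim3, so the size, and for Pdlim1, Pdlim3 and Pdlim7 in OPCs and Ldb3, Pdlim2 and Pdlim3 in neurons the sign, rests on single libraries. With NM transcripts only, Ldb3 in neurons was at -1.67 in place of -0.14 and Pdlim2 at 0.28 in place of -0.03. Genes within 5 Mb of Ldb3 with an unadjusted p under 0.05 numbered 16 of 75 tested (21.3%) in OPCs and 7 of 60 (11.7%) in neurons. Within 1 Mb they numbered 7 of 18 (38.9%) and 2 of 11 (18.2%), so the wider window had higher counts and lower shares. Over all genes the shares were 11.5% and 9%. The counts within 1 Mb were 3 to 6 in OPCs and 0 to 3 in neurons with each library left out, and 1 in neurons with DESeq2. The wider window holds more tested genes, and the cause of the other shifts was not tested. Counts of list genes varied as well, for example from 1 to 4 for the Z-disc partners and 1 to 5 for the focal adhesion core in OPCs with each library left out, and in neurons from 1 to 7 for other LIM proteins, 0 to 3 for the focal adhesion core and 1 to 4 for signalling partners. For unadjusted p values with DESeq2 or with a library left out, the share of all genes is not given here, for lists and neighbours alike. Adjusted over all genes, DESeq2 called Fblim1 and Ptk2 of the lists and 3 genes within 1 Mb of Ldb3 in OPCs, which edgeR did not. Ldb3 in neurons had at most 31.1 normalised counts per library, and its interval was wide.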
